A study of Mus musculus with 12 samples.

Results

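The genes described here encode the chains of the collagens, and they were taken as every gene on the array whose name has the form Col, a number, the letter a and a number. There were 43 such genes of 34788 gene names measured, read by 68 of 55681 probes; 25 genes had 1 probe and 18 had more. Total RNA from 12 mouse cell samples was profiled with 1 single-colour Agilent array each, in 4 groups of 3. RAW264.7, a macrophage-like mouse line, had been transfected with a short hairpin RNA against ABHD5 (knockdown) or with the PLKO vector (control). CT-26, a line from a mouse colon carcinoma, had been primed by the ABHD5-knockdown RAW264.7 cells (knockdown-primed) or by the control RAW264.7 cells (control-primed). Not given in the labels are the manner of priming, any separation of CT-26 cells from the macrophages before RNA was taken, whether 1 or several transfected populations were used, or whether samples of a group were separate cultures, so the p-values measure only the spread between these samples.

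Collagens are extracellular proteins in which 3 chains wind into a triple helix, and the chains of a trimer may come from one gene or from several. Fibrillar collagens (types I, II, III, V, XI, XXIV and XXVII) form the fibres of connective tissue, type IV forms the network of basement membranes, and type VI forms beaded filaments. The fibril-associated collagens attach to fibres, and a small group of collagens (types XIII, XVII, XXIII and XXV) spans the plasma membrane. In solid tumours most fibrillar collagen is usually attributed to fibroblasts, while macrophages are better known for breaking collagen down.

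Levels are given as the log2 processed signal of a probe minus the 75th percentile of its array, so that 0 is a bright spot. The lowest level that counted as well above background differed by array. It was -4.8, -4.6 and -6.68 on the control RAW264.7 arrays and -6.77 to -6.32 on the knockdown ones. In CT-26 cells it was -7.23 to -6.22 on the control-primed arrays and -6.01 to -5 on the knockdown-primed ones. One probe stands for each gene, namely the brightest over the 12 arrays among those well above background on all 3 arrays of some group. Levels are compared between arrays for one probe and never between probes. Changes are differences of these log2 levels with the standard error (SE) of limma's moderated fit across all genes, n = 3 per group, and p-values are adjusted over all genes tested (Benjamini-Hochberg), with a threshold of 0.05.

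Abhd5, the targeted gene, had levels of 0.25, 0.23 and 0.39 in the knockdown RAW264.7 samples and 1.38, 1.93 and 1.52 in the controls, a change of -1.32 ± 0.20 (limma adjusted p = 0.00344; 0.0553 when slide was a block). Of the 3 slides used, the first carried control RAW264.7 replicates 1 and 2, the second carried control replicate 3 with the 3 knockdown arrays, and the third carried the CT-26 samples. Spots well above background made up 69.0% to 73.0% on the 3 knockdown RAW264.7 arrays, against 56.5% and 57.9% on the 2 control arrays of slide 1 and 72.7% on the third control. They made up 59.3% to 67.0% on the knockdown-primed CT-26 arrays and 68.3% to 77.3% on the control-primed ones. The median change of all genes tested depended on the scaling. It was -0.304 (log2) for RAW264.7 and 0.108 for CT-26, and with centring on the array median it was -0.0853 and 0.153.

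The 2 lines were checked against cell type markers. All 12 macrophage markers were well above background on every RAW264.7 array, and their summed level (linear signal over the array's 75th percentile) was 302 to 343 in knockdown and 289 to 328 in control cells. In CT-26 cells 8 of the 12 after knockdown priming and 9 of the 12 after control priming were on all 3 arrays, with sums of 57.4 to 75.1 and 55.2 to 61.0. Most of these sums came from Itgam, at 5.56 to 6.07 and 5.51 to 5.67, against 5.68 to 6.06 in knockdown and 5.95 to 6.62 in control RAW264.7 cells. Csf1r, Cd68 and Cd14 were also on all 6 CT-26 arrays, while Adgre1 and Spi1 were on none. All 12 markers passed as lower in control-primed CT-26 than in control RAW264.7 cells. The 8 fibroblast markers summed to 17.9 to 21.3 in knockdown-primed and 13.8 to 15.1 in control-primed CT-26 cells, with Pdgfra, Pdgfrb, Dcn, Thy1 and Twist2 on all 6 arrays; the RAW264.7 sums were 0.0862 to 0.101 in knockdown and 0.0904 to 0.155 in control cells. Of the 9 epithelial markers, 6 were on all arrays of each CT-26 group (Krt8, Krt18, Krt19, Krt20, Cldn4 and Cldn7). In RAW264.7 cells 7 were on all knockdown arrays and 2 on all control arrays, so these counts do not set the lines apart. Vil1 was on no CT-26 array and Epcam on 1, a control-primed one. Cdh1, which encodes E-cadherin, was on none of the 12 arrays. The sums of the 9 markers were 26.4 to 34.2 in knockdown-primed and 32.5 to 36.8 in control-primed CT-26 cells, and 1.02 to 1.10 in knockdown and 1.34 to 1.91 in control RAW264.7 cells. Most of the CT-26 sums came from Krt20, at 4.46 to 4.81 in knockdown-primed and 4.75 to 4.88 in control-primed cells. The part of other cells in the collagen signal of CT-26 samples was not tested.

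Detection on all 3 arrays, by any probe, held for 30 of 43 genes in knockdown RAW264.7 cells and 20 of 43 in control RAW264.7 cells, and for 29 in knockdown-primed and 30 in control-primed CT-26 cells. The lower number in control RAW264.7 cells came with slide 1. There 22 and 20 collagen genes were above background on the 2 control arrays, against 30 to 35 on the knockdown arrays and 32 on the control array that shared their slide. Of all gene names on the array, 63.3% and 64.8% were above background on those 2 control arrays, against 74.3% to 77.9% on the knockdown arrays and 77.7% on the third control. A group of 19 genes was above background on all 12 arrays, among them Col1a2, Col3a1, Col4a2, Col4a5, Col7a1 and Col18a1. Col11a1, Col24a1, Col28a1, Col5a2, Col6a3 and Col6a5 were above background on no array, and another 4 genes, Col12a1, Col13a1, Col6a6 and Col8a2, on some arrays but not on all 3 of any group. The missing genes include partners of chains that were measured. Col5a2 encodes the chain that pairs with the products of Col5a1, and Col6a3 a chain of classical type VI collagen.

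**Figure D1:**
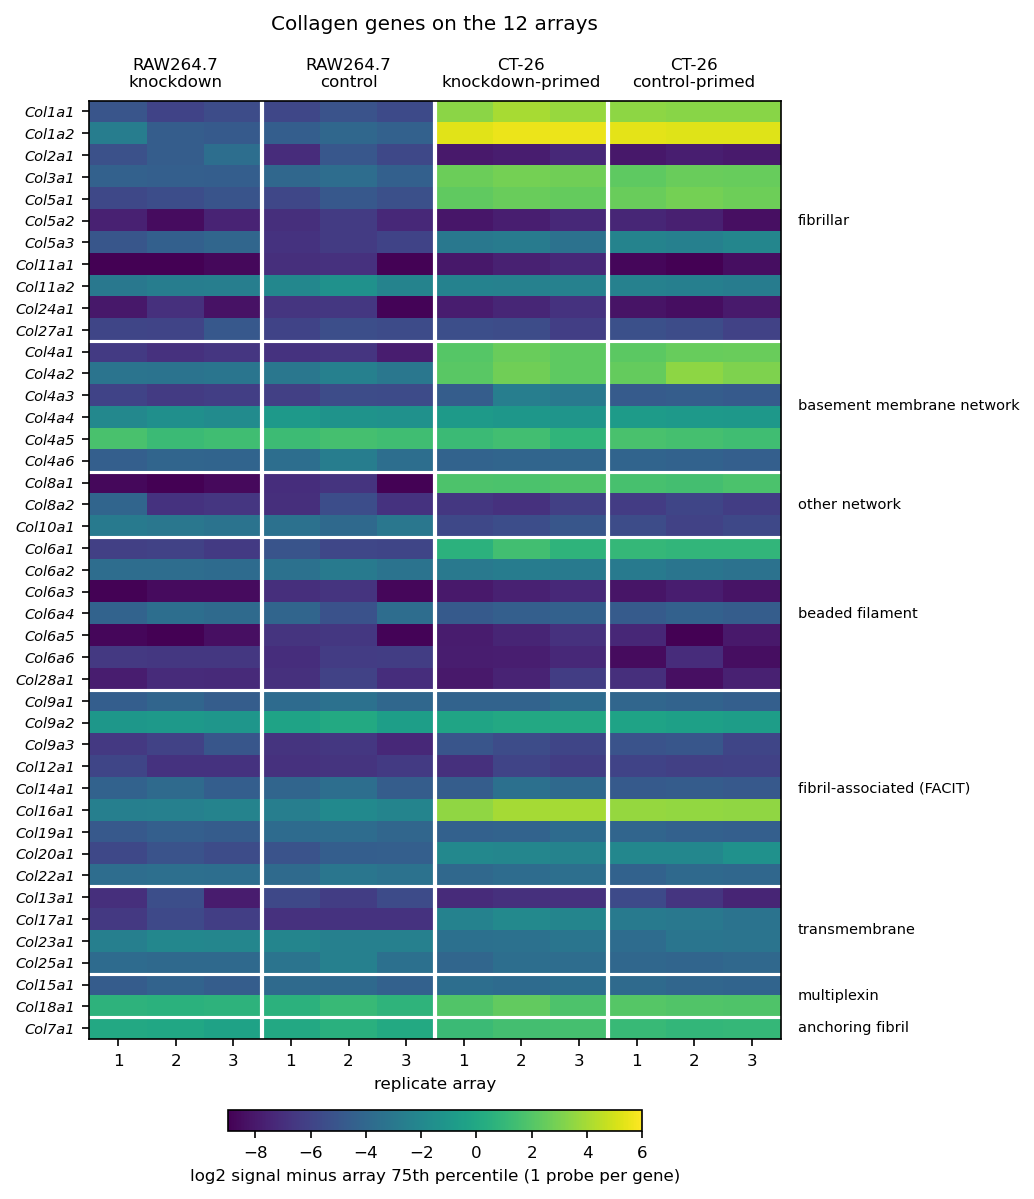
Level of the standing probe of the 43 collagen genes (rows, by structural class) on each of the 12 arrays (columns, by group), as log2 signal minus the array's 75th percentile; colours are to be compared along a row. Col1a1, Col1a2, Col3a1, Col5a1, Col4a1, Col4a2, Col8a1, Col6a1 and Col16a1 are bright in both CT-26 groups and dim in both RAW264.7 groups.

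The largest differences among collagen genes lay between the cell lines. Control-primed CT-26 cells were set against control RAW264.7 cells, which leaves out the knockdown. Of the 30 collagen genes tested, 21 passed, 15 higher and 6 lower in CT-26 cells. Of all 25411 genes tested, 67.6% passed, 25.2% higher and 42.3% lower, so the count of collagen genes that passed (70.0%) was near that of all genes. The sizes were large. 10 collagen genes passed with at least a 16-fold higher signal in CT-26 cells and 0 with at least a 16-fold lower one, against 4.15% and 2.61% of all genes tested. That fold was chosen after the values were seen, and line and slide cannot be told apart, since CT-26 and control RAW264.7 arrays share no slide. The median difference of the collagen genes tested was 0.567 and that of all genes -0.407. The groups did not overlap for 74.6% of all genes tested. For collagen genes, 15 of 30 lay wholly higher and 9 wholly lower in CT-26 cells. Among the 10 genes, Col1a1, Col4a1, Col5a1, Col5a3, Col6a1 and Col8a1 entered the test only through CT-26 cells, which favours a higher value. The 10 against 0 and the median rest in part on them. With detection required on all arrays compared, 6 of 20 collagen genes passed as higher and 9 as lower, beside 69.4% of all genes. The medians there were -0.105 for collagen genes and -0.524 for all genes.

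Among the fibrillar chains 5 of 6 tested were higher in CT-26 cells. Col1a2, one of the 2 chains of type I collagen, the main fibre of skin and bone, had levels of 5.36, 5.29 and 5.25 in control-primed CT-26 cells, against -4.53, -3.97 and -4.37 in control RAW264.7 cells. The groups lay far apart, by 9.59 ± 0.20 (772-fold, limma adjusted p = 3.2e-08). Its partner Col1a1 had 3.45, 3.33 and 3.33 in control-primed CT-26 cells and -5.83, -5.17 and -5.62 in control RAW264.7 cells, where 1 of the 3 arrays was above background. This difference was 8.91 ± 0.21 (adjusted p = 4.56e-08). Both type I genes were far higher on every CT-26 array than on any RAW264.7 array; Col1a2 was above background on all 6 RAW264.7 arrays. Col3a1, which encodes the single chain of type III collagen, had 2.28, 2.57 and 2.54 in control-primed CT-26 cells and -4.00, -3.61 and -4.39 in control RAW264.7 cells, a difference of 6.46 ± 0.23 (88.2-fold, adjusted p = 2.24e-07). Col5a1, which encodes a chain of type V collagen, a component of type I fibrils that limits their diameter, had 2.56, 2.86 and 2.69 in control-primed CT-26 cells and -5.78, -4.86 and -5.34 in control RAW264.7 cells. The difference was 8.03 ± 0.25 (adjusted p = 1.21e-07), with 1 of 3 RAW264.7 control arrays above background. The one fibrillar gene tested that did not pass was Col11a2, which encodes a chain of cartilage collagen XI, at -0.59 ± 0.25 (adjusted p = 0.0625). It was above background on all 12 arrays.

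Of the 6 type IV genes, 3 passed as higher and 1 as lower in CT-26 cells. Col4a1 and Col4a2 encode the chains of the common basement membrane trimer and lie head to head on chromosome 8. Col4a1 had levels of 2.21, 2.52 and 2.59 in control-primed CT-26 cells; in control RAW264.7 cells it had -6.83, -6.68 and -7.77, not well above background on any array. Because it was not measured there, the fold is a bound, at least 223-fold higher in CT-26 cells (adjusted p = 1.23e-07 for the measured difference of 9.53 ± 0.30). The bound sets the mean of the CT-26 arrays against the lowest signal that counted as well above background on each RAW264.7 array. Col4a2 had 2.48, 3.47 and 3.12 in control-primed CT-26 cells and -3.06, -2.45 and -3.04 in control RAW264.7 cells, where all 3 arrays were above background. It differed by 5.88 ± 0.30 (58.7-fold, adjusted p = 1.34e-06). Both chains of the common trimer were therefore higher on every CT-26 array than on any RAW264.7 array.

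The start sites that RefSeq gives for Col4a1 and Col4a2 (GRCm38.p6) lie 21 bases apart on opposite strands, and the stretch is shown because both genes were far higher in CT-26 cells. It is shown as the overlap of the 2 promoter windows, each of which runs from 250 bases before to 50 after a start. Each start lies on the transcribed side of the other, so every base falls within the 50 bases after a start. No base of the stretch lies upstream of both genes. The stretch is 78 bases long, chr8:11312777-11312854 of GRCm38.p6, plus strand, which is the strand of Col4a2, and capitals mark GGGCGG (the GC box).
Col4a1 and Col4a2: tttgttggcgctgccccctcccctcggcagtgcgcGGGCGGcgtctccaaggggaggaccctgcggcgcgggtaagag
On neither strand does the stretch hold the CCAAT box (letters CCAAT) or the TATA box (letters TATAAA). Over the 250 bases upstream of all 32851 RefSeq starts, both strands read, 32.7% held the GC box, 33.8% the CCAAT box and 12.4% the TATA box.  RefSeq windows were found for 35 of the 43 collagen genes (38 starts), of which 57.9% held the GC box, 34.2% the CCAAT box and 13.2% the TATA box. The 78 bases shown are shorter and lie after a start, so they are not to be compared with these shares. These letter matches say nothing of which factor binds.

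The standing probes of the minor type IV genes differed less. Col4a3, which with Col4a4 and Col4a5 encodes the trimer of the kidney filter, had -4.71, -4.58 and -4.75 in control-primed CT-26 cells and -6.17, -5.53 and -5.57 in control RAW264.7 cells, with 1 of those 3 arrays above background (1.08 ± 0.22, adjusted p = 0.00304). This call was lost after normexp background correction, where the difference was 0.12. Col4a6 had -4.16, -4.28 and -4.43 in control-primed CT-26 cells and -3.59, -2.65 and -3.60 in control RAW264.7 cells, lower on every array (-1.01 ± 0.28, adjusted p = 0.0131). Col4a5 had overlapping levels in both lines, 1.40 to 1.72 in control-primed CT-26 cells and 1.28 to 1.60 in control RAW264.7 cells, with a 95% interval of the difference from -0.29 to 0.54 (adjusted p = 0.545). The 3 probes of Col4a4 disagreed. The standing probe, above background on all arrays of both groups, differed by 0.34 ± 0.20 (adjusted p = 0.164 over all probes). A second, at -4.40, -4.47 and -4.28 in control-primed CT-26 cells and -6.71, -6.58 and -6.47 in control RAW264.7 cells, where 1 of 3 arrays was above background, differed by 2.20 ± 0.17 (adjusted p = 2.17e-05). The third was above background on no control RAW264.7 array and gives no fold (adjusted p = 0.000315).

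Col8a1, whose chain forms the hexagonal network of type VIII collagen, had 1.63, 1.53 and 1.73 in control-primed CT-26 cells and -7.03, -6.76 and -8.94 in control RAW264.7 cells. It was above background on none of the 6 RAW264.7 arrays and on all 6 CT-26 arrays, and was at least 127-fold higher in control-primed CT-26 than in control RAW264.7 cells (adjusted p = 2.41e-06). Col10a1, the collagen of hypertrophic cartilage, ran the other way. Its levels were -5.54, -6.02 and -5.72 in control-primed CT-26 cells and -3.42, -3.86 and -3.08 in control RAW264.7 cells, a change of -2.31 ± 0.24 (4.95-fold lower, adjusted p = 9.54e-05). It was the collagen gene with the largest fall in this comparison.

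In the beaded filament class, Col6a1 passed and Col6a2 and Col6a4 did not. Col6a1, a chain of type VI collagen, had 1, 0.86 and 0.86 in control-primed CT-26 cells and -5.11, -5.79 and -5.85 in control RAW264.7 cells, where 1 of 3 arrays was above background (6.49 ± 0.23, adjusted p = 2.27e-07). Col6a2, the second chain, was read by probes that disagreed. Its standing probe differed by 0.05 ± 0.23 (adjusted p = 0.859), while a probe designed on another transcript had -4.12, -4.27 and -4.46 in control-primed CT-26 cells and was above background on no RAW264.7 array. By that probe it was at least 2.11-fold higher in CT-26 cells (adjusted p = 0.000869 over all probes).

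Membrane-spanning chains went both ways. Col17a1, which encodes the collagen of the hemidesmosomes that fix epithelial cells to their basement membrane, had -2.87, -3 and -3.26 in control-primed CT-26 cells. In control RAW264.7 cells it had -6.87, -6.83 and -6.80 and was above background on none of the 3 arrays, so it was at least 4.98-fold higher in CT-26 cells (adjusted p = 8.33e-07). Col23a1, another membrane-spanning chain, had -3.67, -3.18 and -3.25 in control-primed CT-26 cells and -2.15, -2.45 and -2.44 in control RAW264.7 cells (-1.02 ± 0.20, adjusted p = 0.00272). Every CT-26 array lay below every RAW264.7 array for this gene. Col25a1, whose shed ectodomain is found in amyloid plaques, had -3.99, -4.12 and -3.91 in control-primed CT-26 cells and -3.24, -2.49 and -3.44 in control RAW264.7 cells (-0.95 ± 0.26, adjusted p = 0.0129).

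The other genes that passed were Col16a1, Col5a3, Col20a1, Col18a1 and Col7a1, higher by 0.80 to 5.77, and Col22a1 and Col19a1, lower with -0.61 and -0.50. Col18a1 encodes the precursor of endostatin and Col7a1 the anchoring fibrils beneath the epidermis. Both were above background on all 12 arrays, and their differences were 1.11 ± 0.19 (adjusted p = 0.00121) and 0.80 ± 0.19 (adjusted p = 0.00656). A second probe of Col18a1, also above background on all 12 arrays, differed by 0.35 ± 0.17 and did not pass (limma adjusted p = 0.0929 over all probes).

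**Figure D2:**
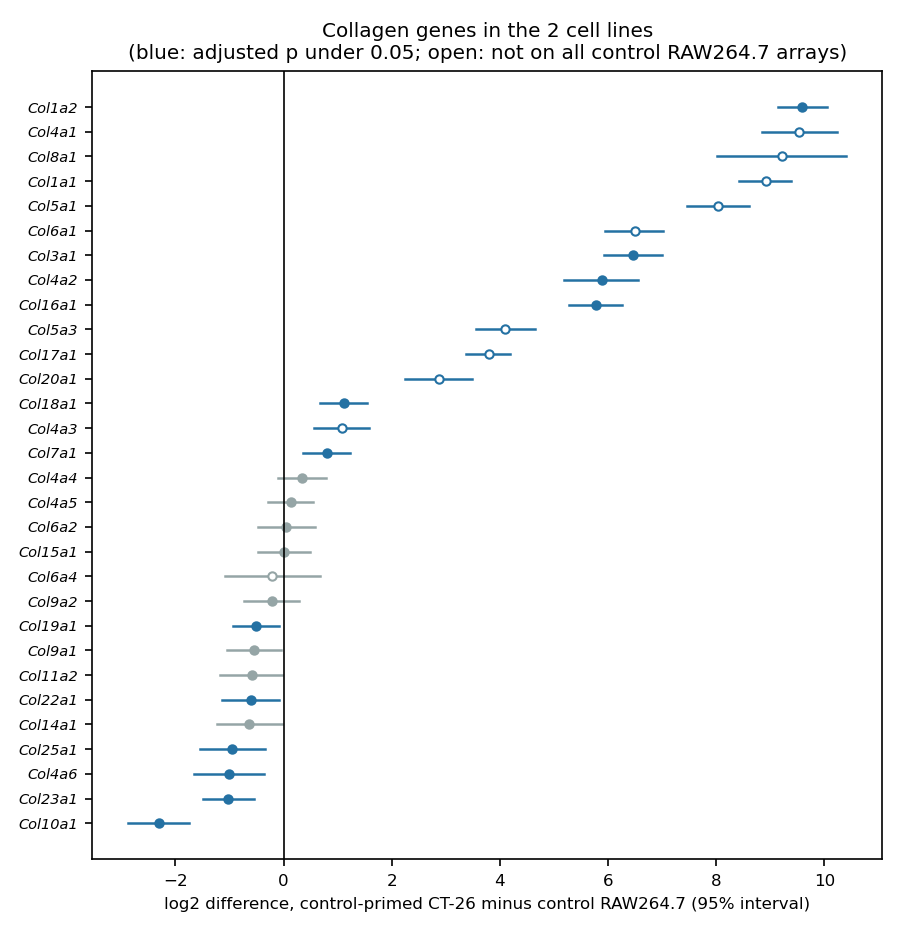
Log2 difference of the 30 collagen genes tested between control-primed CT-26 cells and control RAW264.7 cells (points, with 95% intervals; 3 arrays per group). The fibrillar genes Col1a1, Col1a2, Col3a1 and Col5a1 and the type IV genes Col4a1 and Col4a2 lie between 5.88 and 9.59, while 15 of 30 genes lie between -2.31 and 0.34; open points mark genes not above background on all control RAW264.7 arrays, whose differences are measured values and not bounds.

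A few collagen probes read the repeat that makes the triple helix. In the helix of a collagen chain glycine follows every pair of other residues, glycine codons start with GG, and so GG returns every 9 bases in helix-coding sequence. Of the 68 collagen probes, 4 (5.88%) held at least 4 such GG in a row, against 48 of the 55613 other probes (0.0863%). Their sequences are shown because these probes behaved unlike the other probes of their own genes. All lie on the plus strand of mm9, the build of the array files: Col14a1 at chr15:55347733-55347792, Col15a1 at chr4:47283786-47283845, Col16a1 at chr4:129756457-129756516 and Col25a1 at chr3:130270497-130270556. Capitals mark the GG of the repeat.
Col14a1: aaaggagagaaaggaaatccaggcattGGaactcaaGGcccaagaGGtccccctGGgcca
Col15a1: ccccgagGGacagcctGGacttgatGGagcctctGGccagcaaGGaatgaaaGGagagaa
Col16a1: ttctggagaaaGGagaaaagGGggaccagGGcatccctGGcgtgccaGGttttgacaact
Col25a1: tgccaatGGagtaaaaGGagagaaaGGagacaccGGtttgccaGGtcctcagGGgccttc
All 4 were above background on all 12 arrays. Of the 9 other probes of these genes 1, a Col16a1 probe, was above background on all 12, and the others on 0 to 6.

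The probes of Col16a1, a fibril-associated chain, disagreed most. The repeat probe had -0.33, -0.50 and -0.57 in control-primed CT-26 cells and -1.79, -1.07 and -1.28 in control RAW264.7 cells, a difference of 0.91 ± 0.23. The standing probe, further along the gene, had 3.61, 3.55 and 3.49 in control-primed CT-26 cells and -2.56, -1.86 and -2.24 in control RAW264.7 cells, a difference of 5.77 ± 0.21 (54.6-fold, adjusted p = 2.55e-07). The remaining probes were above background on no RAW264.7 array, and put the gene at least 8.15-fold and at least 182-fold higher in CT-26 cells. All 4 Col16a1 probes thus gave the same direction with very different sizes. For Col14a1 the repeat probe changed by -0.12 ± 0.29 in RAW264.7 cells after the knockdown. The other probe of Col14a1 had -5.13, -4.34 and -4.77 in the knockdown cells and -6.56, -6.53 and -7.44 in the controls. It was above background on all 3 knockdown arrays and on none of the other 9, at least 1.53-fold higher after the knockdown (limma adjusted p = 0.00317 over all probes). This probe entered the test only through the knockdown group, which favours a rise, and it was not fitted with the slide as a block. On the control arrays of slide 1 the lowest signals that counted as above background were -4.8 and -4.6, near its knockdown levels. For Col14a1, Col15a1 and Col25a1 the repeat probe stood for the gene in every comparison. Whether the repeat probes also bind RNA of other collagens was not tested.

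**Figure D3:**
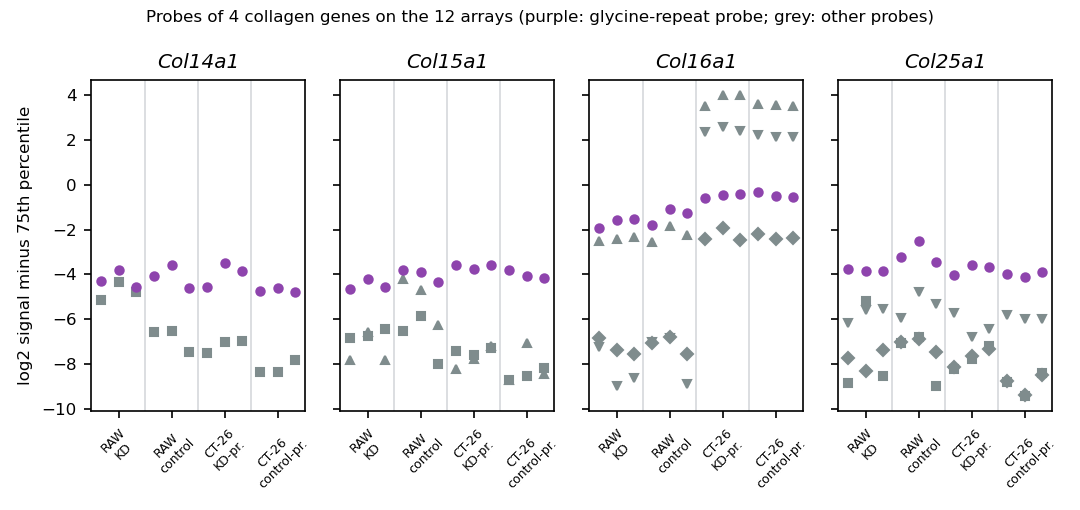
Level of every probe of Col14a1, Col15a1, Col16a1 and Col25a1 on the 12 arrays (log2 signal minus the array's 75th percentile; 3 arrays per group; KD, knockdown; pr., primed). Purple circles, the probes with the glycine repeat, are above background on all 12 arrays, while grey symbols, the other probes, run near the background on many arrays or, for Col16a1, differ strongly between the lines.

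In RAW264.7 cells the knockdown of ABHD5 was set against control to ask which collagen genes the macrophages altered. Of the 30 collagen genes tested, 4 passed: Col5a3 rose, and Col19a1, Col9a2 and Col4a6 fell. That is 13.3% of the collagen genes tested, below the 22.8% of all 25304 genes that passed (7.93% higher and 14.9% lower), so the count is no result about collagens. The median change of the collagen genes tested was -0.192 and that of all genes -0.304. The groups did not overlap for 52.1% of all genes tested. For collagen genes, 3 of 30 lay wholly higher and 10 wholly lower after the knockdown. With the slide as a block 0 of the 30 passed in limma (4 at an unadjusted p under 0.05). Only 4.59% of all genes passed there, so this count too is no result about collagens. On slide 2 alone, which leaves 1 control array, the median change was -0.159 for collagen genes and -0.249 for all genes.

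Col5a3 encodes a less common chain of type V collagen. It had -5.01, -4.42 and -4.05 in the knockdown samples and -6.79, -6.37 and -6.01 in the controls. All knockdown arrays lay above all control arrays and were above background, as was 1 control array, the one on the shared slide. The change was 1.89 ± 0.29 (limma adjusted p = 0.00396), which rests on 2 control values not well above background. On slide 2 alone the change was 1.51 (adjusted p = 0.0709), with the slide as a block it was 1.51 (adjusted p = 0.0738), and after normexp background correction it was 0.40 (adjusted p = 0.203). The 250 bases before the Col5a3 start (GRCm38.p6, chr9:20815068-20815317, printed along the gene's minus strand) are shown because it was the one collagen gene that passed as higher after the knockdown. Capitals mark 1 CCAAT box and 2 GC boxes, the GC boxes in their complement. The TATA box letters occur on neither strand.
Col5a3: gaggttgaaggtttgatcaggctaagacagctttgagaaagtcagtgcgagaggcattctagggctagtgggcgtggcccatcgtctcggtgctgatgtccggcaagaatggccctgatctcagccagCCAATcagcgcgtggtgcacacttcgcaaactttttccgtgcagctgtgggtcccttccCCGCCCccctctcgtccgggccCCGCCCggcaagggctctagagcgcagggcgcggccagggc

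The 3 falls were small. Col19a1, a fibril-associated chain, had -4.79, -4.44 and -4.62 in knockdown and -3.73, -3.71 and -4.02 in control RAW264.7 cells. The groups did not overlap, and the change was -0.80 ± 0.19 (adjusted p = 0.0223). The probe was designed on a clone sequence, and the probe on the gene's reference transcript was above background on no RAW264.7 array. Col9a2, a chain of cartilage collagen IX, had -1.05, -0.97 and -1.10 in knockdown and -0.30, 0.10 and -0.57 in control cells (-0.78 ± 0.21, adjusted p = 0.0341). Col4a6 had -4.48, -4.10 and -4.18 in knockdown and -3.59, -2.65 and -3.60 in control cells (-0.97 ± 0.28, adjusted p = 0.0411). On slide 2 alone these changes were -0.60, -0.47 and -0.65, with adjusted p of 0.125, 0.139 and 0.119. For all 3 genes both control arrays of slide 1 lay above the control array of slide 2.

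The partners of Col9a2 did not pass. Col9a1 had -4.50, -4.09 and -4.58 in knockdown and -3.73, -3.39 and -3.99 in control cells (-0.69 ± 0.23, adjusted p = 0.057). Col9a3 had -6.50, -6.05 and -4.99 in knockdown cells, all above background, and -6.76, -6.54 and -7.26 in controls, none above background (adjusted p = 0.0769). No fold is given for Col9a3. Its knockdown mean (-5.85) lay below -5.36, the mean over the control arrays of the lowest signal that counted as above background. On control replicate 3 alone that signal was lower, -6.68. The same holds for Col17a1, with -6.49, -5.70 and -6.22 in knockdown cells, all above background, and -6.87, -6.83 and -6.80 in controls (adjusted p = 0.0548). Col2a1, the main collagen of cartilage, was above background on all 3 knockdown arrays at -5.28, -4.56 and -3.58 and on 1 control array, where the 3 values were -7.08, -4.91 and -5.73 (adjusted p = 0.0911). The genes of the main fibrillar chains in CT-26 cells, Col1a1, Col1a2, Col3a1 and Col5a1, had RAW264.7 changes between -0.44 and 0.32, none of which passed. For Col1a2 the 95% interval ran from -0.82 to 1.47, and knockdown replicate 1, at -2.62, lay above the other 5 RAW264.7 arrays.

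In CT-26 cells the arrays after priming by knockdown macrophages were set against those after priming by control macrophages, to ask whether the tumour cells' collagen genes followed the macrophage genotype. Of the 30 collagen genes tested 1 passed, Col17a1, which is 3.33% against 6.31% of all 24823 genes tested (3.14% higher and 3.17% lower). The median change of the collagen genes tested was 0.187 and that of all genes 0.108. The groups did not overlap for 36.2% of all genes tested. For collagen genes, 9 of 30 lay wholly higher and 2 wholly lower after knockdown priming. Col17a1 had -2.36, -1.92 and -2.15 in knockdown-primed and -2.87, -3 and -3.26 in control-primed cells. All knockdown-primed arrays lay above all control-primed ones and all 6 were above background, for a change of 0.90 ± 0.18 (1.87-fold, limma adjusted p = 0.0268). Without control-primed replicate 2 or 3, or knockdown-primed replicate 2 or 3, the adjusted p was 0.086, 0.131, 0.0684 and 0.0813, with changes of 0.79 to 0.92.

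Several other collagen genes lay just outside the threshold in CT-26 cells. Col5a3 had -2.97, -2.74 and -3.34 in knockdown-primed and -2.30, -2.46 and -2.11 in control-primed cells (-0.73 ± 0.19, adjusted p = 0.0557), and the groups did not overlap. Col4a3 had -4.56, -2.61 and -2.94 in knockdown-primed and -4.71, -4.58 and -4.75 in control-primed cells (1.31 ± 0.42, adjusted p = 0.0854). Here replicate 1 of the knockdown-primed cells lay close to the controls and the other two lay higher. The abundant fibrillar genes moved little. Col1a1 had 3.37, 4.02 and 3.71 in knockdown-primed and 3.45, 3.33 and 3.33 in control-primed cells, with a 95% interval of the change from -0.09 to 0.75. Col1a2 had 5.31, 5.58 and 5.54 in knockdown-primed and 5.36, 5.29 and 5.25 in control-primed cells, with an interval from -0.17 to 0.52. Both intervals include 0. One probe of Col4a4 was above background on all 3 control-primed arrays, at -5.65, -5.61 and -5.53, and on none of the knockdown-primed ones, at -7.20, -6.65 and -7.19 (limma adjusted p = 0.0104 over all probes, with no fold because of the dim signal). That probe entered the test only through the control-primed group, which favours a fall. The other 2 probes of Col4a4 changed by -0.14 and 0.37.

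**Figure D4:**
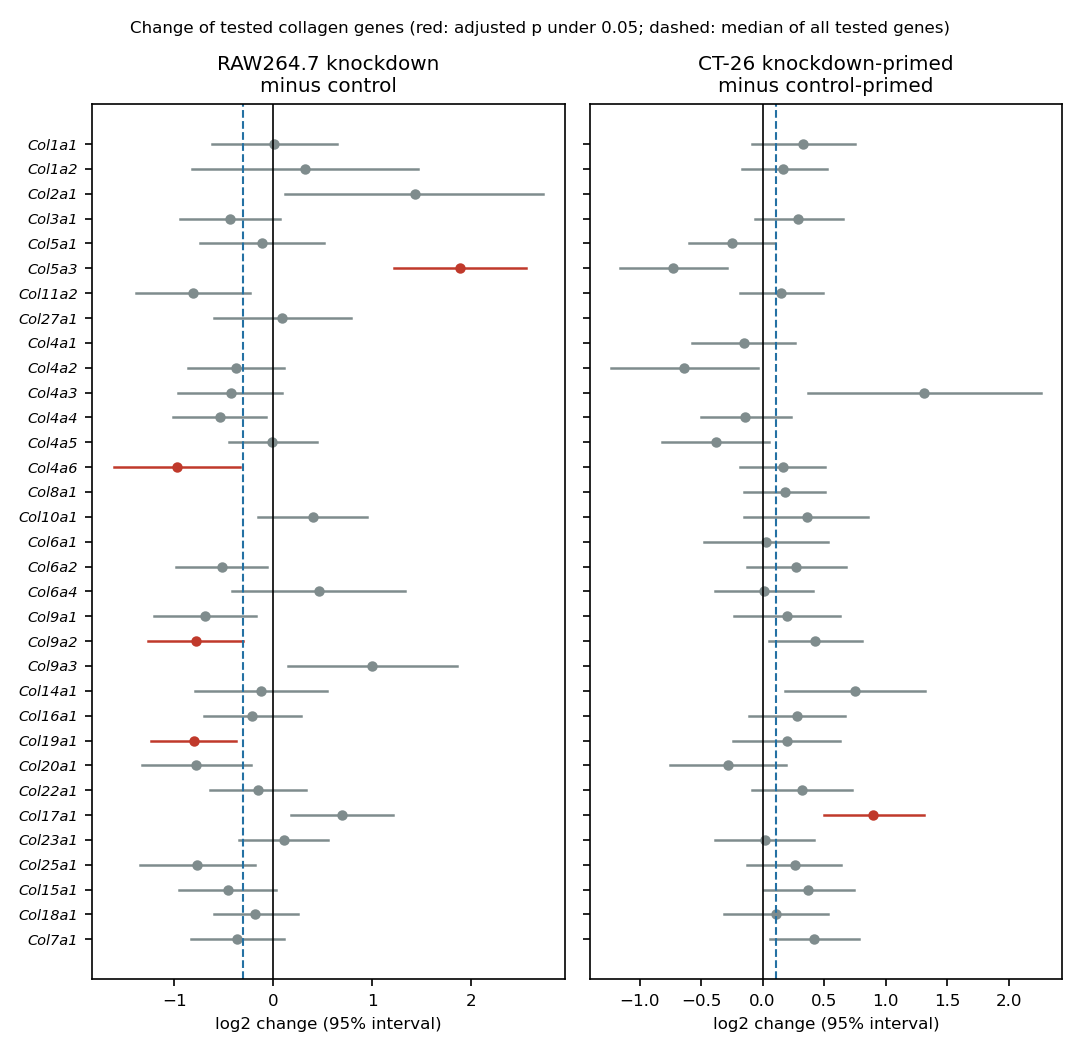
Log2 change (points) with 95% interval of each collagen gene tested, in RAW264.7 cells (knockdown minus control, left) and CT-26 cells (knockdown-primed minus control-primed, right), 3 arrays per group; the 2 panels have different horizontal scales. The genes that passed (red) are Col5a3, Col19a1, Col9a2 and Col4a6 on the left and Col17a1 on the right, and the dashed lines mark the median of all genes tested, -0.304 and 0.108.

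The 2 changes share no arrays, and their difference was tested in one fit over all 12. Of 33 collagen genes tested 11 passed, 1 with a higher change in RAW264.7 cells and 10 with a lower one. This is 33.3%, against 31.4% of all 26885 genes (7.43% higher and 24.0% lower), so again near the background. Col5a3 had the largest difference, 2.62 ± 0.38 (limma adjusted p = 0.000892), and it passed in all 20 alternative settings in which it was tested, with differences of 0.93 (normexp background correction, adjusted p = 0.0259) to 3.09. The lower differences lay between -0.78 and -1.75 and belonged to Col9a2, Col19a1, Col4a6, Col25a1, Col11a2, Col15a1, Col4a3, Col7a1, Col6a2 and Col9a1. With the slide as a block 2 passed, Col5a3 at 2.24 (limma adjusted p = 0.0102) and Col4a1, which had not passed before. Of all genes, 8.86% passed in that setting. None of the 10 lower differences passed there.

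Of the lower differences, 3 belonged to the genes that fell in RAW264.7 cells. Col9a2 had -0.23, 0.08 and 0.03 in knockdown-primed and -0.27, -0.5 and -0.65 in control-primed CT-26 cells (difference -1.21 ± 0.27, limma adjusted p = 0.00817). Col19a1 had -4.34, -4.25 and -3.78 in knockdown-primed and -4.13, -4.34 and -4.48 in control-primed cells (-1.0 ± 0.27, adjusted p = 0.0179), and Col4a6 had -4.22, -4.11 and -4.03 in knockdown-primed and -4.16, -4.28 and -4.43 in control-primed cells (-1.14 ± 0.33, adjusted p = 0.0252). The CT-26 groups did not overlap for Col9a2 and overlapped for the other two. Col4a3, whose CT-26 values are above, had -5.96, -6.37 and -6.24 in knockdown and -6.17, -5.53 and -5.57 in control RAW264.7 cells, which overlapped (-1.75 ± 0.56, adjusted p = 0.0343). The remaining 6 genes follow in all 4 groups. Col25a1 had -3.77, -3.85 and -3.85 in knockdown and -3.24, -2.49 and -3.44 in control RAW264.7 cells, and -4.02, -3.57 and -3.66 in knockdown-primed and -3.99, -4.12 and -3.91 in control-primed CT-26 cells (difference -1.02 ± 0.32, limma adjusted p = 0.0318). Col11a2 had -3.0, -2.64 and -2.6 in knockdown and -2.07, -1.43 and -2.3 in control RAW264.7 cells, and -2.34, -2.4 and -2.39 in knockdown-primed and -2.41, -2.5 and -2.68 in control-primed CT-26 cells (-0.96 ± 0.30, adjusted p = 0.032). For both genes the knockdown RAW264.7 arrays lay below all RAW264.7 controls, while the CT-26 groups overlapped for Col25a1 and were apart by little for Col11a2.

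Col15a1, whose product lies in basement membrane zones, had -4.63, -4.21 and -4.57 in knockdown and -3.81, -3.89 and -4.34 in control RAW264.7 cells, and -3.58, -3.76 and -3.56 in knockdown-primed and -3.81, -4.05 and -4.16 in control-primed CT-26 cells (-0.83 ± 0.27, adjusted p = 0.0342). Col7a1 had 0.04, -0.08 and -0.38 in knockdown and 0.03, 0.5 and 0.14 in control RAW264.7 cells, and 1.23, 1.5 and 1.59 in knockdown-primed and 1.13, 0.95 and 0.99 in control-primed CT-26 cells (-0.78 ± 0.25, adjusted p = 0.036). The RAW264.7 groups overlapped for both genes, and the CT-26 groups for neither. Col6a2 had -3.64, -3.63 and -3.75 in knockdown and -3.38, -2.81 and -3.27 in control RAW264.7 cells, and -2.91, -2.7 and -2.89 in knockdown-primed and -2.8, -3.19 and -3.33 in control-primed CT-26 cells (-0.79 ± 0.27, adjusted p = 0.0424). Col9a1 had -4.2, -4.2 and -3.74 in knockdown-primed and -4.02, -4.24 and -4.48 in control-primed CT-26 cells, beside the RAW264.7 values above (-0.89 ± 0.31, adjusted p = 0.0446). The CT-26 groups overlapped for Col6a2 and Col9a1, and the RAW264.7 groups did not.

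**Figure D5:**
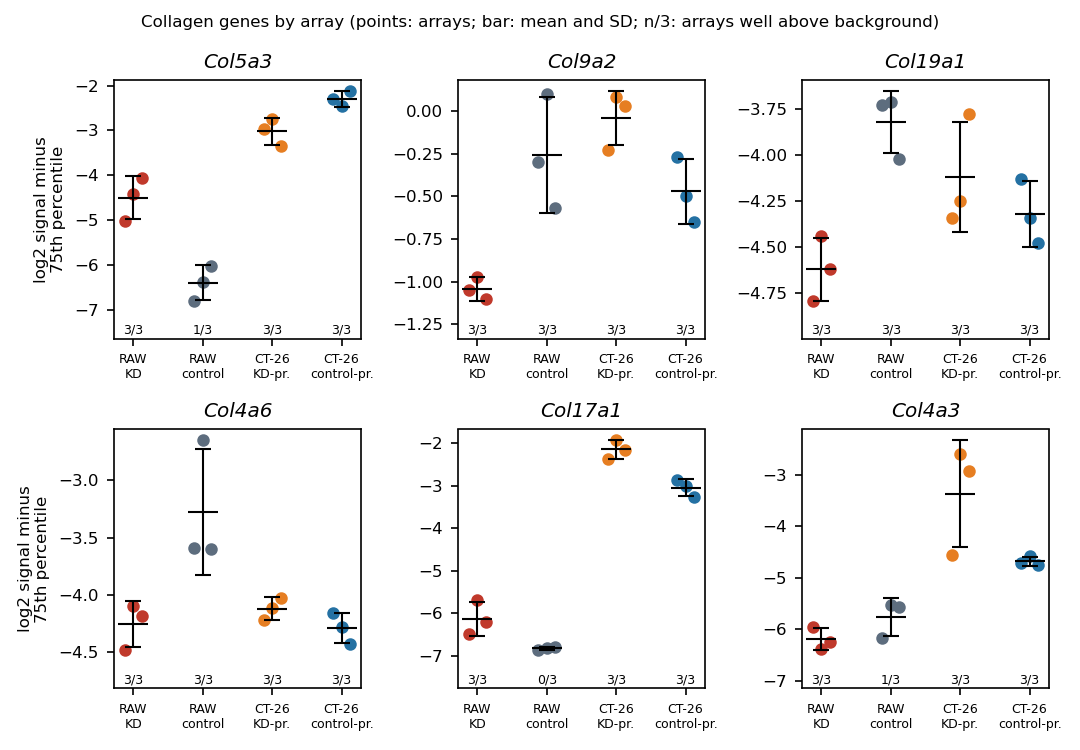
Level of Col5a3, Col9a2, Col19a1, Col4a6, Col17a1 and Col4a3 on each array (points), with the mean and SD of each group of 3; the number of arrays well above background stands under each group (KD, knockdown; pr., primed). Col5a3 is higher in knockdown than in control RAW264.7 cells and lower in knockdown-primed than in control-primed CT-26 cells, with no overlap in either. Of all genes tested, 52.1% did not overlap in RAW264.7 and 36.2% in CT-26 cells.

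Genes that act on collagen were counted in 5 lists chosen by role, with earlier results of these data known. The first holds enzymes and chaperones that modify and fold the chains in the cell. In RAW264.7 cells 6 of 17 tested rose and 2 fell after the knockdown, with a median of 0.214 beside -0.304 for all genes. That is 47.1% of the list, beside 22.8% of all genes tested (7.93% higher and 14.9% lower). Of the 6 that rose, Plod2, P3h2 and P3h4 were each above background on 1 control array. They entered the test only through the knockdown group, which favours a rise. P3h2 lost its call in 9 of 15 alternative settings, and P3h4 lost it in 7 and changed sign in 2. The share rests in part on these calls. Plod2, a lysyl hydroxylase that prepares chains for crosslinking, had -2.31, -1.43 and -1.35 in knockdown cells and -6.54, -6.77 and -5.38 in controls, of which 1 was above background (4.53 ± 0.40, adjusted p = 0.000182). P4ha2, a subunit of the prolyl hydroxylase that stabilises the helix, had 0.36, 0.50 and 1.42 in knockdown and -3.42, -3.54 and -1.82 in control cells (3.68 ± 0.47, adjusted p = 0.00144). Both were higher on every knockdown array, and on slide 2 alone their changes were 3.68 and 2.58. Fkbp14, a proline isomerase, changed by 1.61 ± 0.29 (adjusted p = 0.0078). Crtap, a part of the prolyl 3-hydroxylation complex, changed by 0.97 ± 0.17 (adjusted p = 0.00789) and lost its call when slide was a block (0.127). In CT-26 cells 0 of 17 passed, beside 6.31% of all genes.

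Of the genes that process and crosslink procollagen outside the cell, 1 of 12 rose and 3 fell in RAW264.7 cells. These 33.3% stand beside 22.8% of all genes, and the 1 that rose is near the 7.93% of all genes that did. The median was -0.448, beside -0.304 for all genes. Tgm2, a transglutaminase, had 1.80, 1.81 and 2.22 in knockdown and -1.04, -0.95 and -0.90 in control cells (2.91 ± 0.19, adjusted p = 3.72e-05). Adamts14, which removes the amino-terminal propeptide, had -2.23, -2.31 and -2.14 in knockdown and -0.96, -0.58 and -0.73 in control cells (-1.47 ± 0.18, adjusted p = 0.00113). For both genes the groups were well apart, and both calls held with the slide as a block. Tll1 and Loxl3 fell by less, with -0.81 and -0.61, and neither passed when slide was a block (adjusted p = 0.261 and 0.262). In CT-26 cells 0 of 9 passed, beside 6.31% of all genes.

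Among the collagen receptors 4 of 8 rose and 1 fell in RAW264.7 cells, and 0 of 8 passed in CT-26 cells, beside 6.31% of all genes there. The RAW264.7 share was 62.5%, beside 22.8% of all genes, with a median change of 0.812 beside -0.304. Ddr2, a receptor tyrosine kinase that binds fibrillar collagen, had -2.87, -2.71 and -3.19 in knockdown and -4.66, -4.24 and -4.41 in control cells (1.51 ± 0.21, adjusted p = 0.00204). Lair1, an inhibitory receptor for collagen on immune cells, had -1.32, -0.57 and -0.49 in knockdown and -2.34, -2.16 and -2.40 in control cells (1.51 ± 0.25, adjusted p = 0.00523). Ddr1, a related kinase, changed by 0.91 and the integrin subunit gene Itga10 by -1.11 (adjusted p = 0.00916 and 0.0172), and neither passed when slide was a block (0.0732 and 0.253). The other gene that rose, Mrc2, was above background on 1 control array and entered the test only through the knockdown group. It lost its call in 7 of 15 alternative settings.

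Of the 10 collagen-degrading proteases listed, 6 were tested in RAW264.7 cells. Of these, 5 rose and 0 fell, with a median change of 3.1 beside -0.304 for all genes. This share was 83.3%, beside 22.8% of all genes. All 6 were above background on all 3 knockdown arrays, and none was on all 3 control arrays. Each thus entered the test only through the knockdown group, which favours a rise. The count, share and median are therefore no result about the list as a whole. Ctsk, which encodes cathepsin K, the collagenase of osteoclasts, had 3.17, 2.71 and 2.77 in knockdown cells and -6.77, -6.55 and -8.88 in controls, none of them above background. It was at least 303-fold higher after the knockdown (adjusted p = 1.21e-05). Mmp9, a gelatinase, had 2.66, 2.94 and 3.07 in knockdown and -4.47, -4.57 and -3.54 in control cells, of which 2 were above background (7.08 ± 0.29, adjusted p = 4.25e-06). Mmp13, an interstitial collagenase, had -2.97, -2.39 and -2.49 in knockdown cells and -6.01, -6.91 and -7.71 in controls, none above background. It was at least 6.70-fold higher (adjusted p = 0.000244). Mmp8, a collagenase known from neutrophils, changed by 1.94 ± 0.26 (adjusted p = 0.00206), with 1 of 3 controls above background. These 4 calls held with the slide as a block. The other that rose, Mmp2, which encodes a gelatinase, had -2.79, -2.70 and -2.70 in knockdown and -5.37, -4.02 and -3.95 in control cells, of which 2 were above background (1.72 ± 0.36, adjusted p = 0.0143). Its change was 1.22 when slide was a block, where it did not pass (adjusted p = 0.212). In CT-26 cells 1 of 5 passed (20.0%, beside 6.31% of all genes) and it fell: Mmp13 had -1.11, -1.27 and -0.83 in knockdown-primed and -0.33, -0.34 and 0.09 in control-primed cells (-0.88 ± 0.19, adjusted p = 0.0333). This call was lost without control-primed replicate 2 or 3, without knockdown-primed replicate 2 or 3 and without the filter on dim probes (adjusted p up to 0.148), with changes between -1 and -0.73 over all alternatives.

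Of the proteoglycans and matricellular proteins that bind fibrils, 1 of 5 tested passed in RAW264.7 cells (20.0%, near the 22.8% of all genes) and 1 of 8 in CT-26 cells (12.5%, beside 6.31% of all genes). In RAW264.7 cells Dcn, which encodes decorin, had -5.42, -5.52 and -5.32 in knockdown cells and -6.11, -6.15 and -6.64 in controls, none above background (adjusted p = 0.0209), at levels too near the background for a fold. Dcn entered the test only through the knockdown group, which favours a rise. Its call was lost in 5 of 15 alternative settings, and after normexp correction the change was 0.13 (limma adjusted p = 0.618). In CT-26 cells Thbs1, which encodes thrombospondin, had 0.54, 0.90 and 0.58 in knockdown-primed and -1.17, -1.10 and -1.33 in control-primed cells. The groups did not overlap, and the change was 1.87 ± 0.16 (adjusted p = 0.00166). Thbs1 and Mmp13 were the 2 genes of the 5 lists that passed in CT-26 cells.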

How the data were processed

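Per the labels, RNA was prepared with TRIzol and linearly amplified before Cy3 labelling. Agilent Feature Extraction 10.7.3.1 read the arrays, and probes carry mm9 coordinates, per the file headers. Values in the deposited scanner output are linear spot intensity, and a background subtraction by the scanner software precedes the processed signal, per the file headers. The deposited table holds log2 values for RAW264.7 and linear intensity for CT-26, as its values show; 5 of its 6 CT-26 columns matched another replicate of their group, and it served only as an alternative.

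Control spots (3671 per array) and flagged spots (172 to 272) were left out, and no spot reached saturation. From the log2 signal the array's 75th percentile was taken away, and repeat spots of a probe were averaged. A gene entered a test when its standing probe was detected in full in at least one of the groups compared (any group, for the difference). limma 3.58.1 in R 4.3.3 (lmFit, eBayes, two-sided) was fitted to all genes tested, with Benjamini-Hochberg adjustment. The fits were tested on simulated data with 200 genes changed. Of changes of 1 (log2), 24% were recovered for RAW264.7, 46% for CT-26, 11% for the difference and 23% between the lines. At 2 (log2) these were 83%, 94%, 70% and 75%, so many changes near 1 can be missed. Names came from accessions through RefSeq (26762 probes), symbols (4458) or the array (24461). Sequences are those of the files and of RefSeq (GRCm38.p6). Probes that the array calls Emid2 (now Col26a1) fell outside the name rule.

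The collagen genes, the lists and the rule for named genes were chosen with earlier results of these data known. Described in full were collagen genes past the threshold after knockdown, after priming or in their difference, between the lines the 12 with the smallest p among the largest changes, chains completing a trimer, and up to 4 genes of each partner list. Col16a1 and Col17a1 between the lines, and genes just outside the threshold, were named after their values were seen. Macrophage, fibroblast, epithelial and endothelial markers were summed; the 4 endothelial markers, of which 1 or 2 were detected throughout a group, summed to at most 2.65. Precision is limited by 3 arrays per group.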

Additional observations from a re-analysis of the deposited data

Results flagged for a closer look

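The 11 collagen genes below were singled out because the knockdown change in RAW264.7 cells and the priming change in CT-26 cells differed in an interaction test over all 12 arrays (limma, adjusted p under 0.05). The difference of the log2 changes was 2.62 ± 0.38 for Col5a3 (SE, adjusted p = 0.000892), which had 1.89 in RAW264.7 and -0.73 in CT-26 cells. It was -1.21 for Col9a2, -1 for Col19a1 and -1.14 for Col4a6, the 3 genes that fell in RAW264.7 cells, where the CT-26 changes were 0.43, 0.20 and 0.17. It was -1.75 for Col4a3, where CT-26 replicates 2 and 3 after knockdown priming stood above the other CT-26 arrays. For Col25a1 and Col15a1, both read by glycine-repeat probes, it was -1.02 and -0.83. For Col11a2, Col7a1, Col6a2 and Col9a1 it was -0.96, -0.78, -0.79 and -0.89. The median difference of all genes was -0.392 (-0.218 with median centring), 2 of 3 RAW264.7 controls lay on a slide of their own, and the part of either in these 10 lower values was not tested further than the block for slide.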

How the results depend on the processing

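Over 63 named results and 993 alternatives, 778 kept direction and side of the threshold, 213 lost the call and 2 changed sign: P3h4 in RAW264.7 cells, with -0.07 after normexp correction and -0.37 with the mean of its probes. The counts of collagen genes passing moved as follows, and each percentage is the share of all genes that passed in the same setting. That share is not given for 2-fold or more or for every probe on its own. In RAW264.7 cells (4, 22.8%) they were 8 after normexp correction (29.9%) and 8 with the mean of detected probes (23.6%). They were 1 without the filter on dim probes (7.53%), 0 with slide as a block (4.59%) and 1 at 2-fold or more. Leaving out 1 array gave 1 (each knockdown array, 6.64% to 10.5%) to 7 (control 3, 29.1%). In CT-26 cells (1, 6.31%) they were 2 after normexp correction (7.28%), 2 with detection required on all arrays (8.91%) and 2 with the mean of probes (6.82%). They were 2 with every probe on its own and 0 at 2-fold or more. Without the filter they were 0 (0.115%), where 8 had an unadjusted limma p under 0.05. Leaving out 1 array gave 0 (control-primed 2 or 3, knockdown-primed 2 or 3, 0.371% to 2.45%) to 3 (knockdown-primed 1, 12.1%). For the difference (11, 31.4%) they were 15 after normexp correction (45.4%), 6 with median centring (25.4%), 2 with slide as a block (8.86%) and 5 at 2-fold or more. Leaving out 1 array gave 3 (replicate 3 of either CT-26 group, 18.9% and 20.2%) to 13 (RAW264.7 control 3, 37.6%). Between the lines (21, 67.6%) they stayed within 15 to 25, and leaving out 1 array gave 19 to 23. The shares of all genes ran from 52.6% (without the filter) to 74.8% (median centring). The direction was less steady. The main fit had 15 higher and 6 lower (median 0.567). With detection required on all arrays compared (69.4%) it was 6 higher and 9 lower (median -0.105). The cause of these shifts was not tested. Same-numbered replicates did not deviate together (correlations of -0.02 to 0.04 in RAW264.7 and -0.21 to -0.05 in CT-26 cells). With the replicate block 7, 1 and 6 collagen genes passed in RAW264.7 cells, in CT-26 cells and for the difference (18.9%, 3.6% and 22.8%). Over all genes in RAW264.7 cells, 2007 were higher and 3770 lower; the split was 2382 to 1427 with median centring, 2143 to 1990 with quantile normalisation and 1732 to 5829 after normexp correction. In CT-26 cells it was 780 to 787, and 1134 to 668 with median centring and 1167 to 640 after normexp correction.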

Other observations

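Some collagen probes stood out on a single array. Knockdown RAW264.7 replicate 1 had Col1a2 at -2.62, against -4.55 and -4.73 on the other two knockdown arrays, and Col8a2 at -4.09, against -6.83 and -6.60. Fn1, which encodes fibronectin, was at -3.22 on that array, against -7.74 and -8.33. In control-primed CT-26 cells Fn1 had 4.65, 4.69 and 4.59. Pcolce, a procollagen processing gene, was at -3.14 on that array, against -4.41 and -4.74. On knockdown-primed CT-26 replicate 1 a second probe of Col6a6 had -2.47, against -7.18 and -6.96 on the other two. These values were picked out after they were seen, and no test was made of them.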
